A study of Mus musculus with 6 samples.

Results

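The 10 Wnt ligand genes described here are Wnt2, Wnt4, Wnt5a, Wnt6, Wnt7a, Wnt7b, Wnt9a, Wnt10a, Wnt11 and Wnt16. They were chosen by symbol, all 10 were found among the 26586 genes of the count table, and all 10 passed the filter on low counts. Their transcripts were measured by RNA sequencing in sorted cells of 3 ovariectomized mice, which the labels call endometrial epithelial cells. All mice carried Axin2rtTA, in which the promoter of Axin2 drives a doxycycline-dependent activator, and tetOH2BJGFP, from which that activator switches on a green fluorescent histone. Ovaries were removed at an age of 4 weeks, doxycycline followed 2 weeks later, and uteri of the then 6-week-old mice were taken 4 days after doxycycline. Each mouse gave a GFP+ fraction, labelled Axin2+, and a GFP- fraction, labelled Axin2-, so that there were 3 libraries per fraction. Ovariectomy, doxycycline and both transgenes were common to the 2 fractions, which differ in the activity of the reporter. Library numbers stand for mice, per the labels, which also mention pooling of cells; had cells been pooled across mice, the p-values would measure only the spread between libraries.

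Wnt ligands are secreted glycoproteins that carry a lipid, added by the acyltransferase Porcn, and travel to the cell surface with the carrier Wls. They bind Frizzled receptors, together with Lrp5 or Lrp6 when the signal runs through beta-catenin, or with Ror and Ryk receptors in other branches. In the mouse uterus Wnt7a is a ligand of the luminal epithelium that is needed for gland formation, Wnt5a is a ligand of the mesenchyme, and Wnt4 acts in the stroma at decidualization.

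Libraries held 49714402 to 59597315 counted read pairs. Of the 16896 genes tested, 27.3% passed an edgeR adjusted p of 0.05. Axin2 stood at 356 to 369 CPM (counts of a gene relative to the TMM-scaled total of its library, in counts per 1e+06) in the libraries labelled Axin2- and at 165 to 299 CPM in those labelled Axin2+. It was lower in the Axin2+ library of all 3 mice, opposite to the labels. The difference did not pass (log2 fold change -0.61, edgeR adjusted p = 0.0710), but did in DESeq2 (-0.62, adjusted p = 0.0260) and without the Axin2+ library of mouse 3 (-0.82, adjusted p = 0.0290), so every direction below is that of the libraries as labelled. The fractions also differed in cell type markers. The 12 epithelial markers summed to 192 to 295 CPM in the libraries labelled Axin2- and 2375 to 3443 CPM in those labelled Axin2+, and 12 of 12 rose (Epcam from 12.4 to 227 CPM and Cdh1 from 25.6 to 361 CPM). The labels call both fractions epithelial, and these markers were low in the libraries labelled Axin2-. There the 10 smooth muscle markers summed to 2558 to 6878 CPM against 286 to 461 CPM in those labelled Axin2+, and 10 of 10 fell. The 12 stromal fibroblast markers summed to 10379 to 21510.3 CPM against 2822 to 4424 CPM, and 10 of 12 fell. Macrophage markers, 8 of 8 of which rose, summed to 44.0 to 295 CPM against 657 to 3529 CPM. Of the mesothelial markers 4 of 8 rose and 1 fell (182 to 232 CPM against 205 to 545 CPM), of the endothelial markers 5 of 8 rose (179 to 225 CPM against 221 to 308 CPM), and of 7 T and NK cell markers 5 fell (17.5 to 29.3 CPM against 0.415 to 2.59 CPM). Those 5 passed the filter on low counts only through the Axin2- libraries, where they were high. In the libraries labelled Axin2- most of the mesothelial sum was Wt1, which fell (mean 161 against 75.1 CPM). Most of the endothelial sum there was Cdh5, which was lower without passing (139.7 against 78.9 CPM). The median log2 fold change was 2.77 for the mesothelial and 1.31 for the endothelial markers, so these sums understate the markers that rose. No list had a marker without a read in a whole fraction. The part of these cell types in the differences below was not tested, and fewer cells of a type and less RNA per cell cannot be told apart in such libraries.

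The Wnt ligands moved in both directions. Wnt7a, Wnt7b and Wnt11 rose in the libraries labelled Axin2+, while Wnt6, Wnt9a and Wnt10a fell. Wnt2, Wnt4, Wnt5a and Wnt16 did not pass. The 3 that rose stand beside 14.5% of all tested genes, and the 3 that fell beside 12.8%. Without the Axin2+ library of mouse 2 only 1 of the 10 rose (Wnt7a) and 0 fell, beside 1491 and 1053 of 17448 tested genes. Also 0 fell without the Axin2- library of mouse 1, beside 1272 of 17302 genes. The count was 1 without that of mouse 2, beside 1790 of 17392. With all libraries 2447 and 2171 of 16896 genes rose and fell, so calls over all genes were fewer there too. When mouse was a block 3 rose and 3 fell, beside 2085 and 1869 genes in all. Those that fell were Wnt5a, Wnt10a and Wnt16. The median log2 fold change of the 10 ligands was -0.82, against -0.01 over all genes tested. The levels of the 2 fractions did not overlap for 9 of the 10, Wnt4 being the exception, whereas 47.2% of all tested genes had fractions that did not overlap. An exact two-sided permutation test over the libraries gave p = 0.1 for each of those 9, the smallest value that 3 libraries against 3 allow. It exchanged labels over all libraries and did not use their pairing by mouse.

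**Figure D1:**
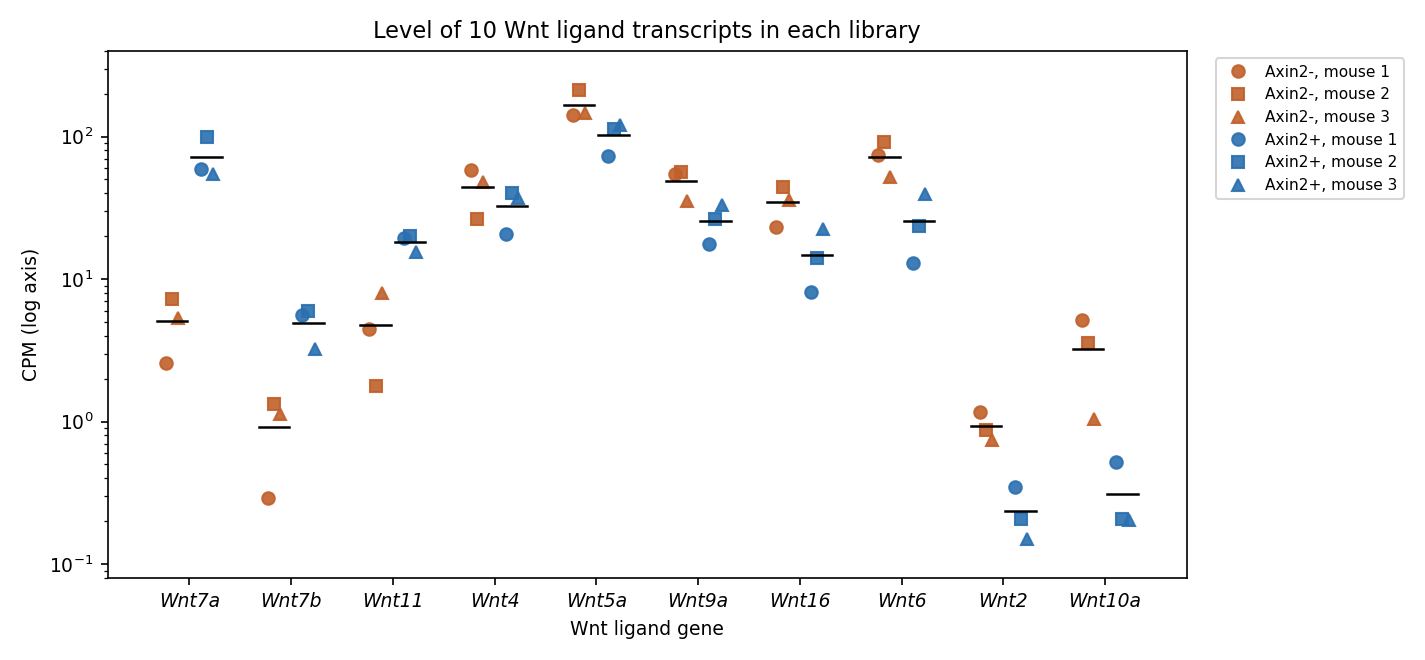
Level of each of the 10 Wnt ligand transcripts in CPM on a log axis, with 1 point per library (orange for Axin2-, blue for Axin2+, shape for the mouse) and a line at the mean of 3 libraries. Wnt7a, Wnt7b and Wnt11 are higher in every Axin2+ library, Wnt4 overlaps between fractions, and the other 6 are lower in every Axin2+ library.

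Wnt7a had the largest rise. It lies on the minus strand of chromosome 6, from 91363981 to 91411363 (GRCm38, the assembly that mm10 names), and no other annotated gene overlaps it. In mice 1, 2 and 3 it stood at 2.59, 7.24 and 5.31 CPM in the libraries labelled Axin2- and at 59.4, 99.6 and 54.7 CPM in those labelled Axin2+. The lowest Axin2+ library was thus well above the highest Axin2- library. The means were 5.04 ± 2.34 and 71.3 ± 24.7 CPM (SD, n = 3 libraries each), and the log2 fold change of 3.82 ± 0.43 (SE) had an edgeR adjusted p of 0.00131. Wnt7a passed in each of 15 other settings, with log2 fold changes between 3.50 and 4.18.

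Wnt7b, the closest relative of Wnt7a and a ligand of lung and kidney epithelia, rose from a much lower level. It lies on the minus strand of chromosome 15, from 85535437 to 85582473. Its counts were 15, 76 and 55 reads in the libraries labelled Axin2- and 324, 316 and 173 reads in those labelled Axin2+. In CPM these are 0.292, 1.33 and 1.13 against 5.59, 5.97 and 3.22. Mouse 1 had the lowest level in the first fraction, and mouse 3 the lowest in the second. The log2 fold change was 2.42 ± 0.60 (SE, edgeR adjusted p = 0.0235). Wnt7b did not pass without the Axin2- library of mouse 3 (log2 fold change 2.62, adjusted p = 0.0602) or the Axin2+ library of mouse 2 (2.26, adjusted p = 0.0783). The gene overlaps AU022754, and whether counting used strand is not given in the sources used here. AU022754 was also higher in the libraries labelled Axin2+, with 62, 41 and 22 reads against 13, 12 and 9 in those labelled Axin2-.

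Wnt11, a ligand known for branching of the kidney duct and for cell movements in the embryo, lies on the plus strand of chromosome 7, from 98835112 to 98855195. It stood at 4.49, 1.77 and 8.01 CPM in the libraries labelled Axin2- and at 19.3, 20.0 and 15.4 CPM in those labelled Axin2+. The Axin2+ libraries lay close together, whereas the Axin2- libraries spread from mouse 2, the lowest, to mouse 3, the highest. Its log2 fold change was 1.94 ± 0.50 (SE, edgeR adjusted p = 0.0278). Without the Axin2- library of mouse 1 (log2 fold change 1.94, adjusted p = 0.0821) or the Axin2+ library of mouse 2 (1.87, adjusted p = 0.0796) it did not pass.

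Among the ligands that fell, Wnt10a, a ligand of teeth, hair and other skin appendages, had the largest change. It lies on the plus strand of chromosome 1, from 74791516 to 74804179. Its counts were 264, 202 and 51 reads in the libraries labelled Axin2- and 30, 11 and 11 reads in those labelled Axin2+, or 5.13, 3.53 and 1.05 CPM against 0.518, 0.208 and 0.205 CPM. The Axin2- library of mouse 3 was well below the other two of its fraction, yet above all Axin2+ libraries. The log2 fold change was -3.37 ± 0.74 (SE, edgeR adjusted p = 0.0152). Wnt10a did not pass without the Axin2- library of mouse 1 (-2.85, adjusted p = 0.0552) or the Axin2+ library of mouse 2 (-3.15, adjusted p = 0.0617).

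Wnt6, a ligand of the uterine stroma at implantation, is the neighbour of Wnt10a on the plus strand of chromosome 1, from 74771892 to 74785322, with 6193 bases between the genes. It stood at 74.0, 91.3 and 52.0 CPM in the libraries labelled Axin2- and at 13.0, 23.5 and 39.8 CPM in those labelled Axin2+. Mouse 3 had the lowest value of the first fraction and the highest of the second, so its libraries were the nearest to each other. The log2 fold change was -1.51 ± 0.41 (SE, edgeR adjusted p = 0.0320). Wnt6 did not pass when mouse was a block (-1.63, adjusted p = 0.0543). It also did not pass without any of the 3 Axin2- libraries (adjusted p = 0.0868, 0.0874 and 0.0513 for mice 1, 2 and 3), without the Axin2+ library of mouse 2 (0.103) or with library-size scaling (0.0504), so its call is near the threshold.

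Wnt9a, known for its part in joint formation, lies on the plus strand of chromosome 11, from 59306928 to 59333552. It stood at 54.6, 56.3 and 35.1 CPM in the libraries labelled Axin2- and at 17.6, 26.4 and 33.0 CPM in those labelled Axin2+. In mouse 3 the values of the fractions were almost equal. The log2 fold change was -0.92 ± 0.28 (SE, edgeR adjusted p = 0.0441). This call was lost when mouse was a block (-0.94, adjusted p = 0.0916), with library-size scaling (0.0940), without the Axin2- library of mouse 1 (0.131) or 2 (0.114) and without the Axin2+ library of mouse 1 (0.0775) or 2 (0.115).

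The other 4 ligands did not pass. Wnt5a, a ligand of the uterine mesenchyme, lies on the plus strand of chromosome 14, from 28504750 to 28527448. It stood at 141, 212 and 147 CPM in the libraries labelled Axin2- and at 73.2, 113 and 119.7 CPM in those labelled Axin2+. No Axin2+ library reached the lowest Axin2- library, but the log2 fold change of -0.71 ± 0.23 (SE) missed the threshold (edgeR adjusted p = 0.0606). A fit with mouse as a block called it (-0.72, adjusted p = 0.0383), as did DESeq2 (-0.72, adjusted p = 0.0189). Wnt16, best known as a ligand that preserves cortical bone, lies on the plus strand of chromosome 6, from 22288227 to 22298522, and stood at 23.2, 44.1 and 36.1 CPM against 8.09, 14.0 and 22.4 CPM. Its highest Axin2+ library, that of mouse 3, was just under its lowest Axin2- library, that of mouse 1. The log2 fold change was -1.22 ± 0.40 (SE, edgeR adjusted p = 0.0591), and it was called with mouse as a block (-1.29, adjusted p = 0.0202), by DESeq2 (-1.22, adjusted p = 0.00854) and without the Axin2+ library of mouse 3 (-1.64, adjusted p = 0.0206).

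Wnt2, a ligand known in lung and placenta, was among the least abundant of the 10 in both fractions (mean 0.927 ± 0.218 CPM for Axin2- and 0.234 ± 0.101 CPM for Axin2+, SD, n = 3 each). It lies on the minus strand of chromosome 6, from 17988940 to 18030585, and had 60, 50 and 36 reads in the libraries labelled Axin2- and 20, 11 and 8 in those labelled Axin2+. Wnt2 missed the threshold, with a log2 fold change of -1.97 ± 0.62 (SE, edgeR adjusted p = 0.0518). In the authors' deposited table its FDR was 0.0334, and it passed here in DESeq2 (adjusted p = 0.0121), with upper quartile scaling (0.0465) and with the filter of above 0.5 CPM in at least 3 libraries (0.0364). Wnt4, on the plus strand of chromosome 4 from 137277489 to 137299726, stood at 58.2, 26.5 and 47.7 CPM in the libraries labelled Axin2- and at 20.6, 40.3 and 37.2 CPM in those labelled Axin2+. It was lower in the Axin2+ library of mice 1 and 3 and higher in that of mouse 2, the only ligand of the 10 without a common direction in the 3 mice. Its log2 fold change of -0.43 ± 0.35 (SE, edgeR adjusted p = 0.395) was between -0.69 and -0.15 in 15 other settings, and it passed in none of them.

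**Figure D2:**
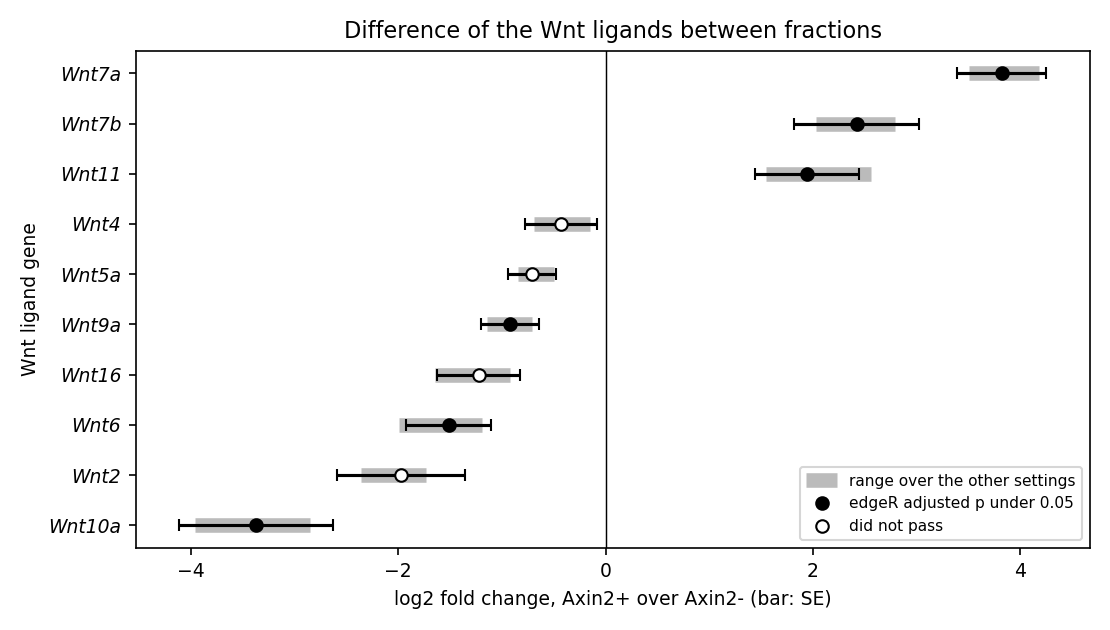
Log2 fold change of each Wnt ligand, Axin2+ over Axin2-, with its SE as a bar, filled where the edgeR adjusted p was under 0.05, and the range over the other settings in grey. Wnt7a at 3.82 and Wnt10a at -3.37 mark the ends, and no grey range crosses 0.

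The regions before the start sites of ligands that rose (Wnt7a, Wnt11) and of one that fell (Wnt6) are shown as examples of both directions, with the GC boxes they hold. The last 150 bases of each RefSeq window of 250 bases (GRCm38.p6) are written 5′ to 3′ on the strand of the gene. They end at the start site. For Wnt7a 140 bases are shown, ending just before the annotated untranslated region. Capitals mark matches on either strand to the GC box GGGCGG, the TCF/LEF core CTTTGA, the estrogen response half-site AGGTCA and the TATA box TATAAA.
Wnt7a, chr6:91411364-91411503, minus strand: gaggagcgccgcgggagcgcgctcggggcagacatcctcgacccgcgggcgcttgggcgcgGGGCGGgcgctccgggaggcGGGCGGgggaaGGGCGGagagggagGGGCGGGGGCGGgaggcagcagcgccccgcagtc
Wnt11, chr7:98834962-98835111, plus strand: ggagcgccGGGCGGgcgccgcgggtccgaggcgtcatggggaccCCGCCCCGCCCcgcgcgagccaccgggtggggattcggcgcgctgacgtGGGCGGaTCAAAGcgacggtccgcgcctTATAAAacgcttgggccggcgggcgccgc
Wnt6, chr1:74771742-74771891, plus strand: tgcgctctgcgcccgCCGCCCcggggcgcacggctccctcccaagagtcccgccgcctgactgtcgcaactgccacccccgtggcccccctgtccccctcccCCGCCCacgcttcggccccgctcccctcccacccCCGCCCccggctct

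Windows were found for 7 of the 10 ligands, with 2 start sites for Wnt11, and not for Wnt5a, Wnt7b and Wnt10a. Over the 250 bases before the start site, G and C made up 77.6% of the Wnt7a window, 79.6% of the Wnt6 window and 70.8% of the first Wnt11 window, against a median of 52.4% over 32851 windows of all genes. The ligands differed in this: Wnt4 (85.2%) and Wnt9a (84.4%) were highest, and Wnt2 (63.6%), Wnt16 (59.2%) and the second Wnt11 window (56.8%) were nearest to the median. Over the same 250 bases the GC box was found 6 times before Wnt7a, 6 times before Wnt6 and 4 times before the first start of Wnt11. It was found in 32.7% of all windows at least once (matches may share a base). Some matches before Wnt7a and Wnt6 lie outside the printed bases. Wnt9a, which fell, held 5, so the GC box was present before ligands of both directions. Wnt4, which did not pass, held 8, Wnt2 held 1, and the Wnt16 window and the second Wnt11 window held none. The TCF/LEF core occurred only at the first start of Wnt11 among these 8 windows, where it was found once, and in 13.8% of all windows. Such a match is a string of letters and not a measured site.

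The size of the difference varied between mice, with libraries paired as the labels number them. Wnt7a rose 23.0-fold, 13.8-fold and 10.3-fold in mice 1, 2 and 3, and Wnt7b rose 19.2-fold, 4.49-fold and 2.84-fold. Wnt11 was 4.29-fold, 11.3-fold and 1.93-fold higher. Wnt6 was 5.69-fold, 3.89-fold and 1.31-fold lower, and Wnt9a 3.11-fold, 2.13-fold and 1.07-fold lower. Wnt5a was lower by 1.93-fold, 1.88-fold and 1.23-fold, and Wnt16 by 2.86-fold, 3.15-fold and 1.61-fold. Mouse 3 thus had the smallest difference for each of these 7 ligands and for Wnt10a, but the largest for Wnt2 (4.98-fold). The summed epithelial markers were 18.0-fold, 9.69-fold and 8.33-fold higher in the Axin2+ libraries of mice 1, 2 and 3. The stromal fibroblast markers were 6.73-fold, 3.68-fold and 4.19-fold lower and the macrophage markers 17.3-fold, 45.0-fold and 2.23-fold higher. The part of these markers in the spread between mice was not tested.

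**Figure D3:**
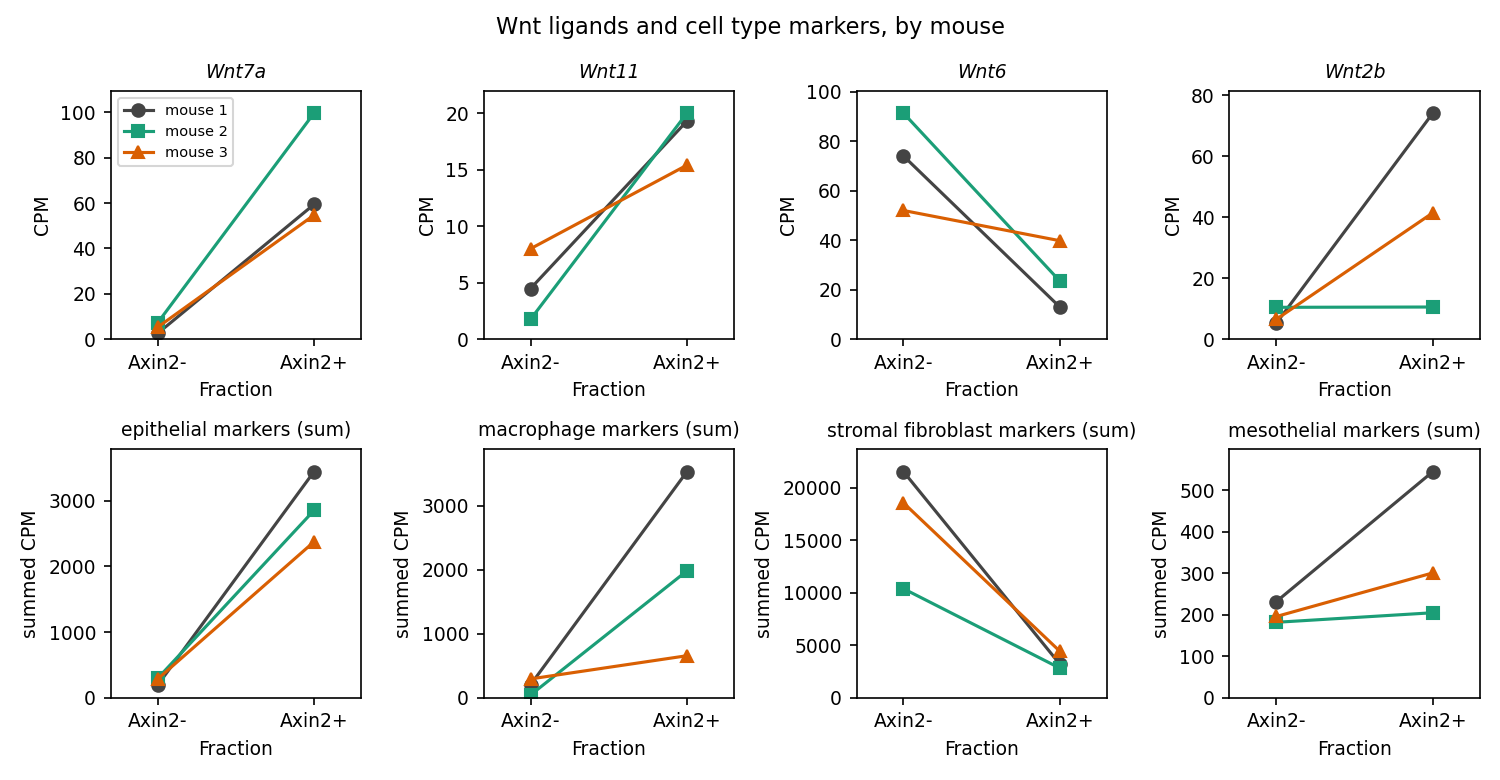
Levels of 4 Wnt ligands in CPM (top) and summed CPM of 4 lists of cell type markers (bottom) in the Axin2- and Axin2+ library of each mouse, joined by a line. Wnt7a and the epithelial markers are higher in the Axin2+ library of all 3 mice. The Wnt6 lines fall steeply in mice 1 and 2 and little in mouse 3, and Wnt2b and the mesothelial markers are highest in the Axin2+ library of mouse 1.

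Levels of different ligands were compared per kilobase of annotated exon (RPKM, from CPM and the GENCODE M21 exon length). The summed RPKM of all 19 Wnt genes was 100.5 ± 16.6 in the libraries labelled Axin2- and 84.2 ± 10.4 in those labelled Axin2+ (SD, n = 3 each), and these ranges overlapped. What differed was the make-up. In the libraries labelled Axin2- the highest RPKM belonged to Wnt6 (33.0, range 23.7 to 41.7) and Wnt5a (21.3 ± 4.99), whose ranges overlapped and lay above the rest. Wnt9a (14.6 ± 3.53), Wnt4 (10.5 ± 3.86) and Wnt16 (7.91 ± 2.43) followed, each overlapping the next. Wnt7a (1.59 ± 0.737), Wnt10a (1.31 ± 0.833) and Wnt11 (1.15 ± 0.757) were not separable from each other, and Wnt2 (0.411 ± 0.0965) and Wnt7b (0.187 ± 0.112) stood lowest of the 10. In the libraries labelled Axin2+ Wnt7a had the highest mean, 22.5 ± 7.78 RPKM. Its range (17.3 to 31.4) did not overlap that of Wnt5a (13.0 ± 3.20), the next by mean, but overlapped those of Wnt6 (5.93 to 18.1) and Wnt2b (2.52 to 17.7). In the Axin2+ library of mouse 3 Wnt6 (18.1 RPKM) stood above Wnt7a (17.3 RPKM). Wnt6 (11.6 ± 6.16), Wnt2b, Wnt4 (7.80 ± 2.52) and Wnt9a (7.71 ± 2.32) overlapped, Wnt11 (4.41 ± 0.593) and Wnt16 (3.41 ± 1.65) overlapped, and Wnt7b (1.01 ± 0.304), Wnt10a (0.126 ± 0.0728) and Wnt2 (0.104 ± 0.0446) came last.

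As a share of the summed ligand RPKM, Wnt7a made up 0.822%, 1.94% and 1.98% in the Axin2- libraries of mice 1, 2 and 3 and 25.9%, 35.4% and 18.9% in the Axin2+ libraries. Wnt6 made up 34.0%, 35.4% and 28.0% in the former and 8.20%, 12.1% and 19.8% in the latter. The first share was higher and the second lower in every Axin2+ library. In that of mouse 3 the Wnt6 share was above the Wnt7a share. Wnt2b, not one of the 10, made up 1.28%, 2.13% and 1.86% in the Axin2- libraries and 24.4%, 2.83% and 10.8% in the Axin2+ libraries, so that in mouse 1 its share was close to that of Wnt7a. Wnt7a, Wnt7b and Wnt11 together held 3.02% ± 1.35 of the ligand RPKM in the libraries labelled Axin2- and 33.3% ± 9.28 in those labelled Axin2+ (SD, n = 3 each). Wnt6, Wnt5a and Wnt9a together held 68.1% ± 5.03 and 37.7% ± 9.47. For 8 of the 10 ligands an exact two-sided permutation test on the share gave p = 0.1 (0.125 adjusted over 10), the smallest it can give. It gave 0.2 for Wnt16 (0.222 adjusted) and 0.6 for Wnt4 (0.6 adjusted).

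**Figure D4:**
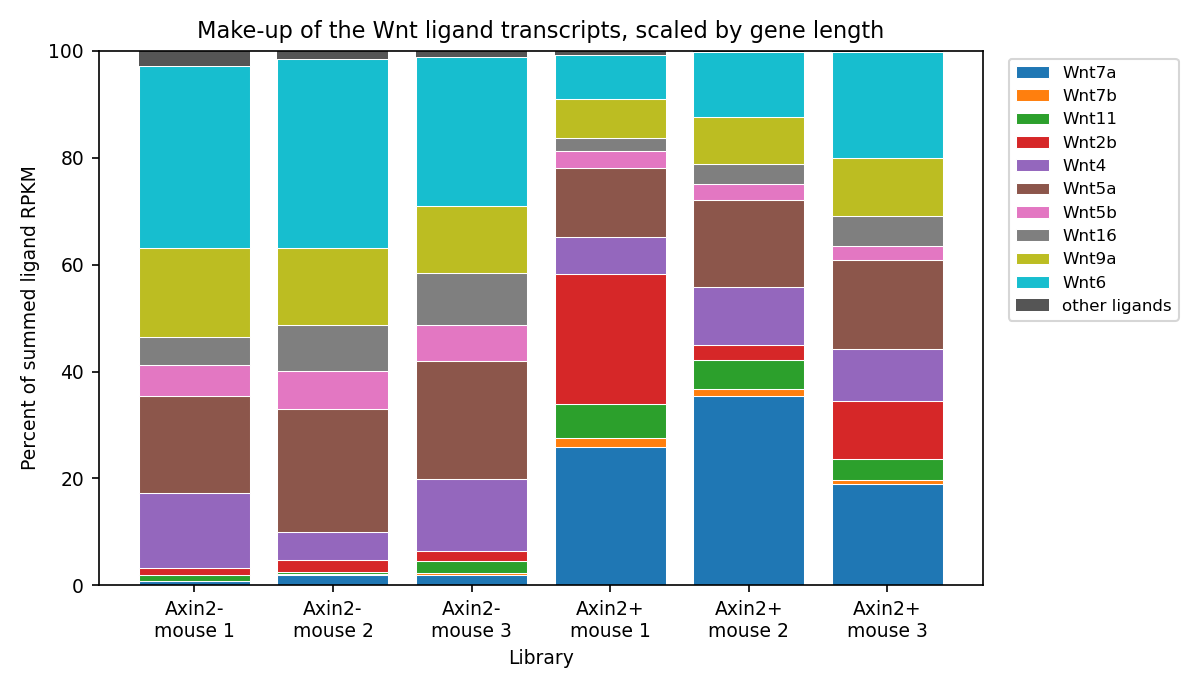
Stacked bars of the percent of summed Wnt ligand RPKM in each of the 6 libraries. Wnt7a grows from 0.822 to 1.98% in the Axin2- libraries to 18.9 to 35.4% in the Axin2+ libraries, and Wnt6 shrinks from 28.0 to 35.4% to 8.20 to 19.8%.

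A ratio of counts within a library does not depend on how libraries are scaled. Here 1 count was added to each gene before the ratio, which weighs more where reads are few. The log2 ratio of Wnt7a to Wnt7b was 2.57 ± 0.44 in the libraries labelled Axin2- and 3.85 ± 0.38 in those labelled Axin2+ (SD, n = 3 each). By the means Wnt7a differed by more than its relative, and the fractions did not overlap. In mouse 1 this ratio moved little, from 3.07 to 3.41, against 2.43 to 4.06 in mouse 2 and 2.21 to 4.08 in mouse 3. The log2 ratio of Wnt7a to Wnt5a went from -5.14 ± 0.54 to -0.54 ± 0.52, again without overlap. Both gave p = 0.1 in an exact two-sided permutation test, 0.15 adjusted over 3 ratios. For the neighbours Wnt6 and Wnt10a the ratio was 4.71 ± 0.88 and 6.26 ± 1.49 with overlapping fractions (exact permutation p = 0.3, 0.3 adjusted).

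The other 9 mouse Wnt genes were examined for comparison, and 3 of them had enough counts to be tested. Wnt2b stood at 5.33, 10.5 and 6.59 CPM in the libraries labelled Axin2- and at 74.2, 10.6 and 41.5 CPM in those labelled Axin2+. It was thus high in the Axin2+ libraries of mice 1 and 3 and level between the fractions in mouse 2. Its log2 fold change was 2.49 ± 0.66 (SE, edgeR adjusted p = 0.0302), and it did not pass when mouse was a block (2.22, adjusted p = 0.110), without the filter on low counts (2.49, adjusted p = 0.0518) or without any 1 of 5 libraries (adjusted p = 0.0527 to 0.103), the Axin2+ library of mouse 2 being the exception. The summed mesothelial markers had the same order in the Axin2+ libraries, with 545, 205 and 301 CPM in mice 1, 2 and 3, and their part in the level of Wnt2b was not tested. Wnt5b, the relative of Wnt5a, fell from 17.2 ± 4.05 to 6.51 ± 0.632 CPM (log2 fold change -1.40 ± 0.22 SE, edgeR adjusted p = 0.00453) and passed in 15 of 15 other settings, though it overlaps the coding gene Fbxl14. Fbxl14 had 2254, 2952 and 2323 reads in the libraries labelled Axin2- and 2782, 2304 and 2293 in those labelled Axin2+, which overlapped. Wnt10b had 83 reads in the 3 libraries labelled Axin2- and 8 in the Axin2+ libraries, without passing (edgeR adjusted p = 0.0553). Wnt1 and Wnt9b had between 0 and 16 reads per library. Wnt3, Wnt3a, Wnt8a and Wnt8b had no read in any library, which allows up to 0.0518 to 0.0618 CPM per library (3 reads, for counting error only). Wnt3a is the neighbour of Wnt9a, with 16175 bases between them.

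Most genes that act on the ligands before they reach a receptor did not pass. Of 9 genes for lipidation, export and removal 1 rose, Wls, the carrier that brings Wnt proteins to the cell surface, from 117 ± 3.90 to 186 ± 23.3 CPM (log2 fold change 0.67 ± 0.13 SE, edgeR adjusted p = 0.00858). Porcn stood at 6.44 to 9.68 CPM in the libraries labelled Axin2- and 11.0 to 13.4 CPM in those labelled Axin2+ without passing (adjusted p = 0.0581), although the fractions did not overlap. Notum, which strips the lipid from Wnt proteins, overlapped between the fractions (15.3 ± 6.08 and 24.1 ± 8.79 CPM, adjusted p = 0.235). None of the 9 fell in edgeR, where 1 had an unadjusted p under 0.05 in that direction, and 1 fell in DESeq2. Of all tested genes 14.5% rose and 12.8% fell in edgeR. Without the Axin2- library of mouse 2, 2 rose, beside 2103 of 17392 tested genes. Porcn and Notum, which did not pass, were named after their values were seen.

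Receptor genes went both ways, as the ligands did. Of 17 tested receptors and co-receptors 3 rose and 7 fell, beside 14.5% and 12.8% of all tested genes. Without the Axin2- library of mouse 3, 4 fell, and without the Axin2+ library of mouse 2, 3 fell. Over all tested genes 1308 and 1053 fell in these settings, against 2171 with all libraries. Fzd10 rose from 6.52 ± 2.88 to 87.7 ± 23.4 CPM and Fzd6 from 17.9 ± 2.56 to 117 ± 18.7 CPM, both Frizzled receptors, and the co-receptor Lrp5 rose from 63.4 ± 6.74 to 130.0 ± 15.2 CPM. Fzd7 fell from 133 ± 13.6 to 44.3 ± 1.66 CPM. Reck and Adgra2 (listed as Gpr124), which together form the co-receptor through which Wnt7a and Wnt7b act on brain vessels, fell while those ligands rose. Reck stood at 82.6, 127 and 109 CPM in the libraries labelled Axin2- and at 16.5, 34.1 and 48.9 CPM in those labelled Axin2+ (log2 fold change -1.68 ± 0.38 SE, edgeR adjusted p = 0.0177). It did not pass without the Axin2- library of mouse 2 (-1.53, adjusted p = 0.0518) or 3 (-1.64, 0.0573) or the Axin2+ library of mouse 2 (-1.70, 0.0610). Adgra2 stood at 342, 378 and 334 CPM against 61.2, 131 and 162 CPM (log2 fold change -1.57 ± 0.33 SE, adjusted p = 0.0136). Both were named after their values were seen, and the stromal fibroblast markers, 10 of 12 of which fell, moved with them.

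Of 8 tested secreted antagonists 6 fell and 1 rose, beside 12.8% and 14.5% of all tested genes. Of these, Sost and Wif1 passed the filter on low counts only through the fraction where they were high. A difference was thus needed for them to be tested, and their calls add no support to these counts. The count that fell was 2 without the Axin2- library of mouse 1 and 3 without that of mouse 2 or 3 or with library-size scaling. Over all tested genes 1272, 1790 and 1308 fell without the Axin2- library of mouse 1, 2 and 3. With library-size scaling 1573 fell, against 2171 in the main fit. Sfrp4, which binds Wnt proteins, fell from 142 ± 52.7 to 11.3 ± 3.50 CPM, and Frzb, of the same family, from 18.1 ± 9.46 to 2.88 ± 1.95 CPM. Frzb did not pass without the Axin2- library of mouse 1 (log2 fold change -2.24, edgeR adjusted p = 0.0582). Sost, an inhibitor that binds Lrp5 and Lrp6, fell, with 29, 27 and 20 reads in the libraries labelled Axin2- and 1 read in all those labelled Axin2+. Wif1, an inhibitor that binds the ligands themselves, was the 1 that rose, with 278, 317 and 876 reads in the libraries labelled Axin2+ and 1 read in all those labelled Axin2-. The summed antagonists stood at 563 to 699 CPM in the libraries labelled Axin2- and 154 to 311 CPM in those labelled Axin2+.

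**Figure D5:**
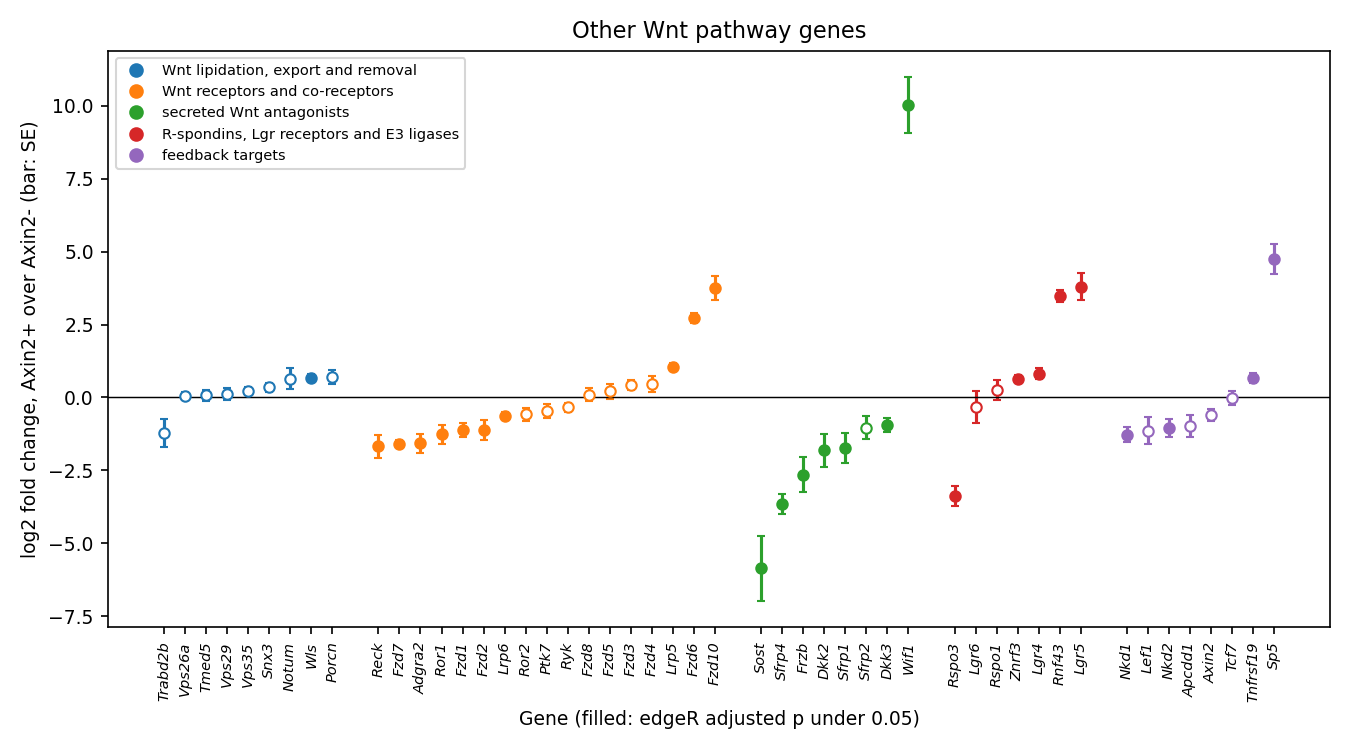
Log2 fold change (Axin2+ over Axin2-, bar for the SE) of the tested genes of 5 lists of Wnt pathway genes, filled where the edgeR adjusted p was under 0.05. Of the secreted antagonists 6 of 8 fell, beside 12.8% of all tested genes, while R-spondin pathway genes and receptors lie on both sides of 0. Sost, which fell, and Wif1, which rose, passed the filter on low counts only through the fraction where they were high.

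Among R-spondins, their Lgr receptors and the ubiquitin ligases that remove Frizzled receptors, 4 of 7 tested genes rose and 1 fell. Over all tested genes 14.5% rose and 12.8% fell. Lgr5 rose from 4.84 ± 2.52 to 67.5 ± 13.4 CPM, a difference of 3.80 ± 0.46 (SE) on the log2 scale beside 3.82 ± 0.43 for Wnt7a. A change of this size was not particular to these genes, as the 12 epithelial markers had a median of 3.57. Rnf43 rose from 9.79 ± 2.62 to 109 ± 10.2 CPM and Znrf3 from 52.7 ± 7.50 to 81.7 ± 3.30 CPM. Znrf3 did not pass without the Axin2+ library of mouse 2 (edgeR adjusted p = 0.0554). In that setting 2 of the 7 rose, beside 1491 of 17448 tested genes. Rspo3, a secreted enhancer of Wnt signals, fell from 103 ± 38.8 to 9.90 ± 1.69 CPM. Of 8 target genes that answer Wnt/beta-catenin signals, 2 rose, 2 fell and 4 did not pass, beside the same shares of all tested genes. The transcription factor gene Sp5 rose from 0.373 ± 0.232 to 10.1 ± 2.90 CPM and Tnfrsf19 from 58.5 ± 14.3 to 93.0 ± 5.51 CPM. Nkd1, an inhibitor of the pathway, fell from 138 ± 23.9 to 57.2 ± 18.9 CPM, and its relative Nkd2 from 85.0 ± 14.5 to 40.9 ± 16.7 CPM. Tnfrsf19 did not pass without either of the Axin2- libraries of mice 1 and 2 or the Axin2+ libraries of mice 2 and 3 (adjusted p = 0.0653 to 0.0991). Nkd2 was not called when mouse was a block (adjusted p = 0.0745), with library-size scaling (0.0820), with no filter on low counts (0.0513), or without any Axin2- library or the Axin2+ library of mouse 2 (0.0696 to 0.128).

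The genes whose log2 CPM was most like that of the ligand of highest mean RPKM in each fraction (Wnt7a and Wnt6) were sought among 11768 genes with a mean of at least 5 CPM. For Wnt7a these were Ctnnal1, Nt5e and Dlx6as1, with Pearson r of 0.9992, 0.9987 and 0.9982 over the 6 libraries. For Wnt6 they were Tmem132c, Fam115a and Bok, with r of 0.9971, 0.9966 and 0.9964. All these libraries share the 2 fractions, so the values describe the likeness of level and no more.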

How the data were processed

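RNA depleted of ribosomal RNA was sequenced from 3 Axin2+ and 3 Axin2- sorted fractions. Raw whole-number counts of read pairs by gene were deposited. Tools in the submitters' processing notes are edgeR 3.22.5, StringTie 1.3.3, featureCounts 1.5.3 (Subread), STAR 2.5.3a and bcl2fastq 2.20.0.422, and their build is mm10. Annotation and strand setting are not stated in those notes. Besides Wnt7b and Wnt5b, the ligands Wnt5a, Wnt6, Wnt11 and Wnt2b overlap annotated genes. The latter are not protein-coding and were not found among the counted genes. A second deposited table by the authors holds their comparison: log2 fold changes, a score (the F statistic), p-values and FDR. Its log2 fold changes for 15469 genes differed by at most 4.62e-14 from the fit used here with a filter of above 0.5 CPM in at least 3 libraries.

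The counts were fitted with edgeR 4.0.16 under R 4.3.3, using filterByExpr, TMM scaling and a robust quasi-likelihood F test of the fractions, with Benjamini-Hochberg adjustment over 16896 genes and a threshold of 0.05. Every adjusted p without another tool's name is from this test, and each SE is the log2 fold change divided by the square root of F. CPM use the TMM factors, and RPKM divide CPM by the union of exons in GENCODE M21. Ribosomal RNA genes took 7.69 to 13.9% of the counts. Libraries of a fraction differed by more than sampling noise, with a chi-square per degree of freedom of at least 59.69. The labels pair the libraries by mouse number. The main fit and all permutation tests, on levels, shares and ratios, treated the libraries as independent. Only the fit with mouse as a block used the pairing. Correlations of deviations from the fraction means were 0.26, 0.0076 and -0.062 between libraries of mice 1, 2 and 3. Between libraries of different mice they ran from -0.22 to 0.24, so libraries of the same mouse were not clearly more alike. Other settings were 9 changes of test, scaling, filter or block (DESeq2 1.42.0 among them) and leaving out each of the 6 libraries. Simulated counts were used to test the fit. They held far fewer changed genes than these data and no difference in cell type, so no result here rests on them. Of the pathway and marker genes listed, 1, Trac, was not found.

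The 10 ligands, the lists and the tests were chosen with earlier results of these data known. Named genes are the 10 ligands, the other 9 Wnt genes, up to 4 members of each other pathway list that passed with the smallest p (the 2 of highest mean CPM where none did), the first 2 epithelial markers, and the 3 genes most like the ligand of highest mean RPKM in each fraction. Other named genes were chosen after their values were seen. The limit for a gene at 0 covers only counting error, because PCR copies could not be told from molecules.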

Additional observations from a re-analysis of the deposited data

How the results depend on the processing

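Each of the 10 Wnt ligands kept its direction in every other setting in which it was tested. Wnt2 and Wnt10a were not tested under the filter of at least 1 CPM in 3 libraries. With the mouse as a replicate block the log2 fold changes of Wnt6 (-1.63) and Wnt9a (-0.94) no longer passed, while those of Wnt5a (-0.72) and Wnt16 (-1.29) did. Under the block 0 other Wnt ligands rose and 1 feedback target fell, beside 2085 higher and 1869 lower over all genes. DESeq2 called 6 ligands lower, with Wnt2 (-1.99), Wnt5a (-0.72) and Wnt16 (-1.22) among them, and 2 other ligands lower, 2 export genes higher and 1 lower, and 5 feedback targets lower. Its calls over all genes also grew, to 3113 higher and 2981 lower, from 2447 and 2171. Library-size scaling called 1 ligand lower, with Wnt6 at -1.34 and Wnt9a at -0.76 not passing, 2 export genes higher, 3 antagonists lower and 1 feedback target lower. It moved the median log2 fold change of all genes to 0.16 and the calls over all genes to 3255 higher and 1573 lower, from 2447 and 2171. Wnt2 passed with upper quartile scaling (-2.03) and with the filter above 0.5 CPM (-1.98). With no filter on low counts 0 other ligands rose and 1 feedback target fell, beside 2304 higher and 2025 lower over all genes. With the longest transcript as length, the Wnt7b share differed by 1.36 percentage points, not 1.04. The cause of these changes was not tested.

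Leaving out 1 library at a time gave 1491 to 2304 genes higher and 1053 to 1911 lower, both lowest without the Axin2+ library of mouse 2. Of the ligands it gave 1 to 3 higher and 0 to 4 lower. The log2 fold changes were -1.99 to -1.19 for Wnt6, 2.03 to 2.79 for Wnt7b, -1.14 to -0.71 for Wnt9a, -3.96 to -2.85 for Wnt10a, 1.55 to 2.56 for Wnt11 and -1.64 to -0.92 for Wnt16. Of the pathway lists, 0 to 1 other ligands rose, 1 to 2 export genes rose, 3 to 7 receptors fell, 2 to 6 antagonists fell, 2 to 4 R-spondin pathway genes rose, and 1 to 2 feedback targets rose and 1 to 3 fell. Counts of a few reads limit Wnt2, Wnt10a and Wnt10b.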
